A study of Mus musculus with 15 samples.

Results

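Transcripts of 40 genes of mitosis and the spindle were followed in 15 poly(A) RNA libraries of C2C12, an established mouse line of muscle precursors (myoblasts), whose deposited table holds 23352 genes. The 40 genes were chosen by name, from the kinases and cyclins that start mitosis to the proteins that divide the cell, and the choice was made with earlier results of these data known. All 40 were expressed highly enough to be tested, among 11945 tested genes. All groups carried a lentiviral construct, and each group had 3 libraries. One group overexpressed wild-type MLX (MLX-WT), one a dominant-negative form (MLX-DN), and one was depleted of Mlx by RNA interference (MLX shRNA). As controls, one group had a vector with GFP alone (GFP control) and another a hairpin without a target (NT shRNA). MLX is a transcription factor that binds DNA with MondoA, ChREBP or proteins of the MAD family. The labels name neither the time after transduction nor the culture medium, and do not state whether replicate libraries were grown apart. A p-value here thus speaks of the spread between libraries, possibly a technical one.

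Dividing cells build up most mitotic transcripts in late S and G2 phase, use their products within a short window and then destroy many of the proteins through the anaphase-promoting complex. In resting cells the DREAM complex holds these genes down, and in cycling cells B-MYB, the MuvB core and FOXM1 switch them on. Many of their promoters carry CCAAT boxes, which NF-Y binds, and a cell cycle homology region (CHR), which the MuvB core binds. Myoblasts leave the cell cycle as they differentiate into myotubes, and their mitotic transcripts decline. In bulk RNA, fewer cells in mitosis and less RNA per cell cannot be told apart.

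Values are FPKM, fragments scaled by transcript length and library depth, and all log2 differences are of log2(FPKM + 2), a scale that makes changes of low genes look smaller. Depth, read from the steps between low values, was 36.9 to 82.5 M reads per library, and replicate libraries had correlations of 0.998 to 0.999 across tested genes. Mlx itself averaged 17.1 FPKM in each control and 3.21 under its shRNA, against 644 in MLX-WT and 394 in MLX-DN libraries. The label of myoblasts was checked against markers. The 8 myoblast markers, among them Myod1 and Des, summed to 1878 to 2263 FPKM in all libraries, and 18 genes of differentiated muscle, such as Ckm and Mylpf, summed to 16060 to 26730 FPKM. Genes of differentiated muscle were thus high in all 5 groups, above the myoblast markers in sum, although the label says myoblasts. Markers of endothelium summed to at most 0.234 FPKM, those of epithelium to at most 3.12 and those of immune cells to at most 5.95, the last in MLX-DN.

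The promoters of 4 members are shown because their letters hold the elements named above. The capitals mark the NF-Y box CCAAT, the usual CHR sequence TTTGAA and its variant TTTAAA, on either strand. The sequences read 5′ to 3′ on the gene's own strand, from 250 bases before to 50 bases after the RefSeq transcript start in build GRCm38.p6. Ccnb1, the cyclin that activates CDK1, lies on the minus strand (chr13:100786437-100786736). Ccnb2, its sister cyclin, is also on the minus strand (chr9:70421505-70421804). So is Cdc20, which activates the anaphase-promoting complex (chr4:118437294-118437593), while the kinase gene Plk1 is on the plus strand (chr7:122159185-122159484).
Ccnb1: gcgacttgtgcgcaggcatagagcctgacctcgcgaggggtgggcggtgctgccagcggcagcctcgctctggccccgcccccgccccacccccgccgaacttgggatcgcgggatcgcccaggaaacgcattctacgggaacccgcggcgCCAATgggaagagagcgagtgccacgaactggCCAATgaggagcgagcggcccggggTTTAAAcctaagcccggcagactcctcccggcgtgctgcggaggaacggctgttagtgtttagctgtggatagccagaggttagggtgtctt
Ccnb2: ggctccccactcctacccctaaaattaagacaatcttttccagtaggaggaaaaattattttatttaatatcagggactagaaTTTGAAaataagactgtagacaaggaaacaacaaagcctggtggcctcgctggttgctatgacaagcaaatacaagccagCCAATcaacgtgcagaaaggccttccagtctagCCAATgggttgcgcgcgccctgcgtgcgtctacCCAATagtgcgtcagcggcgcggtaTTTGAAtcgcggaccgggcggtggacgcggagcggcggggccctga
Cdc20: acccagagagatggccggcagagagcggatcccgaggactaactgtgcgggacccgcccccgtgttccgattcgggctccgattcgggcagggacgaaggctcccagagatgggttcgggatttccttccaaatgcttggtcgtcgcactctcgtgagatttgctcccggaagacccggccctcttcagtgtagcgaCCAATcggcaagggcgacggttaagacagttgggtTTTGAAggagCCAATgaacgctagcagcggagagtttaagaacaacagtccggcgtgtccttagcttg
Plk1: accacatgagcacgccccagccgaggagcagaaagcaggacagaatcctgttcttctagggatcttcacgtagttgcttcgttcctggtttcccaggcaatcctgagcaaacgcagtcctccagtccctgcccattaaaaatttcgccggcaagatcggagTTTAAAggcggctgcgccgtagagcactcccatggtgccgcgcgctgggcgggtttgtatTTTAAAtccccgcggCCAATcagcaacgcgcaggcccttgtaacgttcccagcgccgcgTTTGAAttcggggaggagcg

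In the Ccnb1 window a pair of CCAAT boxes stood upstream of 1 TTTAAA, with 0 matches of TTTGAA. Ccnb2 had 3 CCAAT boxes and 2 TTTGAA matches, Cdc20 had 2 and 1, and Plk1 had 1 of each beside 2 TTTAAA. RefSeq promoters were at hand for 35 of the 40 members, 37 promoters in all, and Kif20a, Ccna2, Aurkb, Foxm1 and Tpx2 had none. On either strand, TTTGAA was found in 27 members, or 78.4% of their promoters, against 17.9% of all 32851 promoters of the same length and 11.6% of those of tested genes. CCAAT was found in 27 members (78.4% of promoters, against 37.4% of all), and 2 or more CCAAT in 18 members (51.4% against 11.7%). Both CCAAT and TTTGAA were present in 24 members (70.3% against 6.95%). TTTAAA was in 9 members (24.3% against 13.2%) and overlapped none of the TTTGAA matches. The E-box CACGTG, the core of the sites that MLX and its partners bind, was in 3 members, Ttk, Espl1 and Anln (8.11% against 7.15% of all and 10.1% of promoters of tested genes). Nuf2, Mad2l1, Pttg1 and Nusap1 held no CCAAT box and neither form of the CHR.

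The TTTGAA matches of the members lay close to the start. Of 33 matches, 25 had their centre less than 50 bases before the start or after it, 75.8% against 25% of the matches in promoters of tested genes, and their median was 5 bases after the start. The 63 CCAAT matches had a median of 64.5 bases before it. Of 72 further mitosis genes, 54 had RefSeq promoters, 60 in all, with CCAAT in 68.3%, TTTGAA in 53.3% and both in 36.7%. Of 44 genes of DNA replication, which are switched on earlier in the cycle, 34 had promoters. CCAAT was in 59.0% of these 39 promoters and TTTGAA in 10.3%. A match of letters is a description and does not show that a protein binds there.

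**Figure D1:**
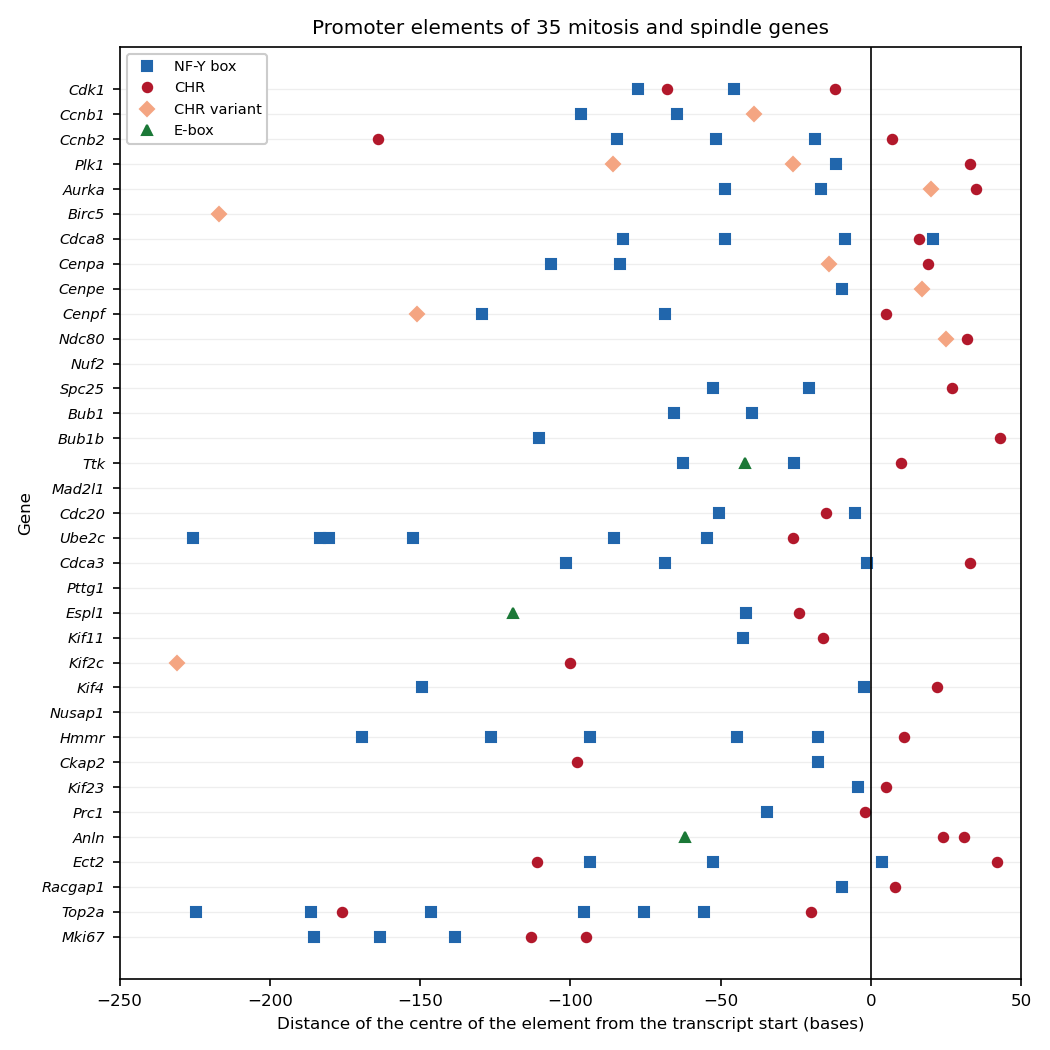
Positions of NF-Y boxes (CCAAT, squares), CHR (TTTGAA, circles), CHR variants (TTTAAA, diamonds) and E-boxes (CACGTG, triangles) in 1 RefSeq promoter of each of 35 members. The x axis is the distance of the element's centre from the transcript start in bases and each line is a gene. The circles gather near the start, with the squares mostly to their left, and triangles are on 3 lines.

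All 40 members were lower with MLX-DN than in the GFP control, and all 40 were lower with MLX shRNA than in the NT shRNA control (limma, two-sided, Benjamini-Hochberg adjusted p under 0.05 over all tested genes). Over all tested genes 48.8% were called lower and 32.6% higher in the first comparison, and 39.3% and 30.8% in the second. The median log2 difference of the members was -0.76 with MLX-DN (all tested genes -0.08) and -0.55 with MLX shRNA (all tested genes -0.02). The median ratios of mean FPKM, taken without the offset, were 0.550 and 0.638. The adjusted p-values by limma ran from 8.83e-16 to 1.02e-04 with MLX-DN and from 1.19e-13 to 5.08e-05 with MLX shRNA. In both comparisons the 3 libraries of the construct lay below the 3 of the control for all 40 genes, as they did for 49.9% and 39.3% of tested genes. With MLX-DN 7 members fell at least 2-fold on the fitted scale, against 2.21% of tested genes, and with MLX shRNA 0 did, against 1.02%. On FPKM itself, 11 members were at or under a ratio of 0.5 with MLX-DN and 2 with MLX shRNA. The share of tested genes at or under that FPKM ratio was not counted.

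Summed over the 40 genes, the RNA amounted to 984, 974 and 976 FPKM in the GFP control libraries and 839, 831 and 854 with MLX-WT. The sums were 730, 726 and 721 FPKM with NT shRNA, 540, 548 and 553 with MLX-DN and 476, 467 and 475 with MLX shRNA. The 5 groups did not overlap in this sum. MLX-DN and MLX shRNA were the 2 lowest groups for each of the 40 genes, and 25 genes followed the full order of the sums. The shares of tested genes with these orders of group means were not counted. In 38 genes all 6 libraries of MLX-DN and MLX shRNA lay below the other 9, as they did in 11.05% of tested genes, and the exceptions were Hmmr and Ckap2. The ratio of the highest to the lowest group mean ranged from 1.37 for Ckap2 to 3.75 for Cdca3, with a median of 2.18.

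The controls themselves differed. NT shRNA was lower than the GFP control in 37 members and higher in 0 (37.1% and 37% of tested genes), with a median log2 difference of -0.35. The exceptions were Ect2 (-0.05), Spc25 (0.05) and Ckap2 (-0.01), and the call of Bub1 (-0.12) ended without GFP control replicate 1 or 2 or NT shRNA replicate 1 or 2 (limma adjusted p 0.0669 to 0.127). Pttg1 (-0.78), Cdca3 (-0.75) and Plk1 (-0.71) differed most. Each construct was therefore also set against the other control. MLX-DN was lower than NT shRNA in 39 members and higher in 0 (48.7% and 21% of tested genes), with a median of -0.35, and MLX shRNA was lower than the GFP control in all 40 (42.8% of tested genes lower and 37.3% higher), with a median of -0.92 and 15 members at least 2-fold lower (3.33%). Comparisons with the same control share its libraries. Hmmr, which encodes a microtubule-binding protein of the spindle, was the exception at -0.04 (limma adjusted p = 0.303), and the other 39 members were lower under both constructs against both controls. The share of tested genes lower in all of these comparisons together was not counted. With median centring the MLX-DN calls against NT shRNA ended for Ccnb2, Cenpa, Ckap2, Kif23 and Ttk (limma adjusted p 0.0559 to 0.819), and with quantile normalization for these and Cenpf (0.0769 to 0.558).

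**Figure D2:**
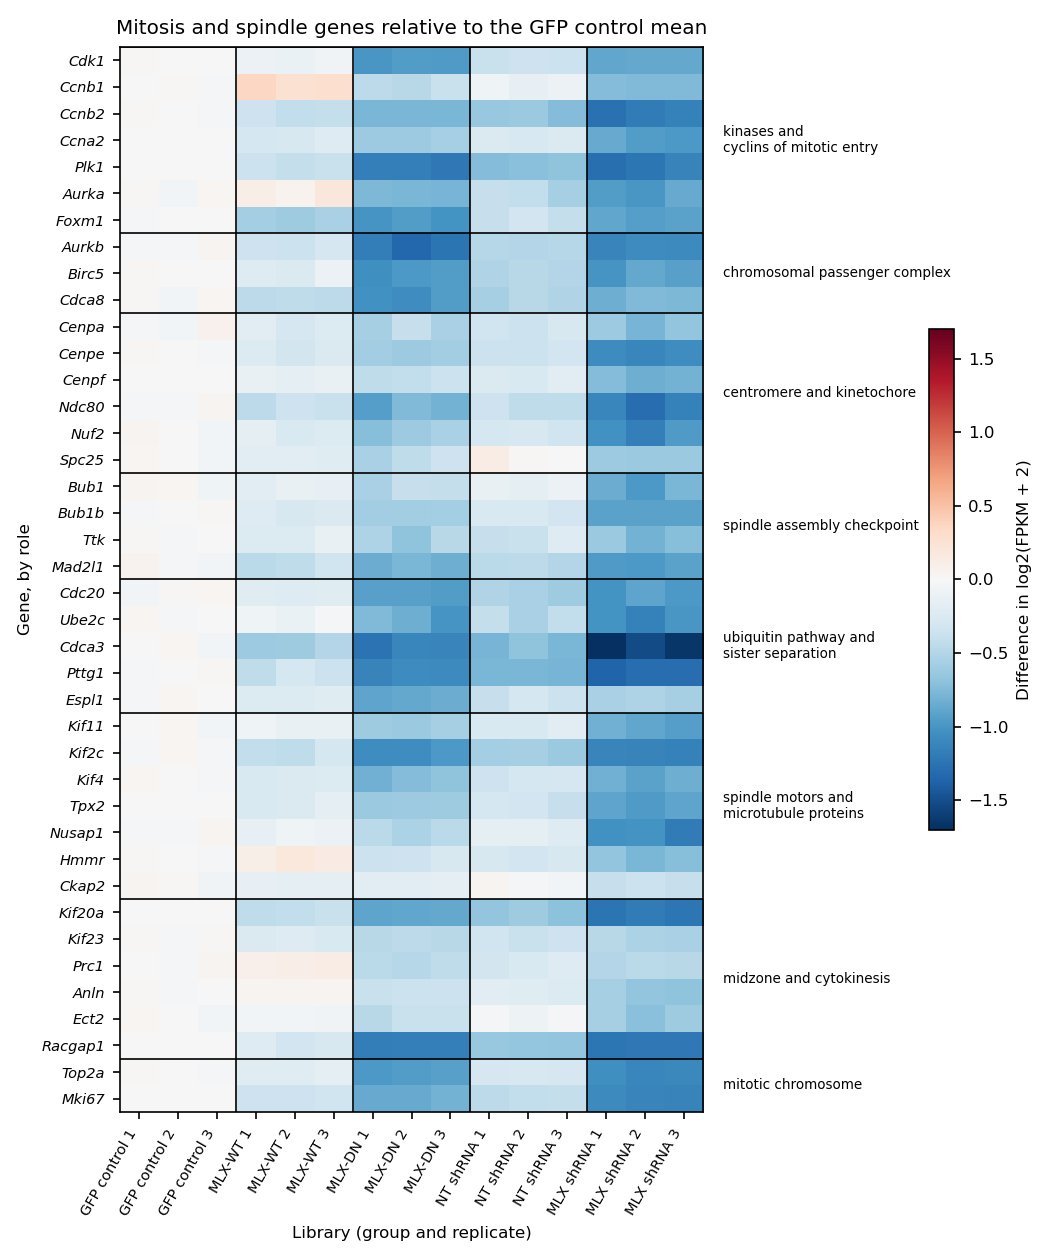
Difference in log2(FPKM + 2) of each of 40 genes (rows, by role) in each of 15 libraries (columns, by group and replicate) from the mean of the GFP control. Blue is lower and red is higher. MLX-DN and MLX shRNA columns are the bluest in nearly all rows, and a few MLX-WT cells are red, among them Ccnb1.

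Genes of mitotic entry fell in both comparisons, with medians over the 7 genes of -0.78 for MLX-DN and -0.52 for MLX shRNA. Cdk1, the kinase whose activity starts mitosis, stood at 34.2, 33.4 and 33.4 FPKM in the GFP control, 25.53, 25.9 and 25.7 under NT shRNA, 31.2, 30.97 and 32.1 under MLX-WT, 16.02, 16.47 and 16.3 under MLX-DN and 17.4, 17.53 and 17.53 under MLX shRNA. No group overlapped another, and MLX-DN was lowest. Its log2 difference was -0.96 with MLX-DN (SE 0.0216, limma adjusted p = 2.68e-15) and -0.51 with MLX shRNA (SE 0.0216, adjusted p = 1.20e-11). Ccnb1 was at 29.8, 30.4 and 29.6 FPKM in the GFP control, 28.3, 27.1 and 27.9 under NT shRNA, 38.6, 36.3 and 36.9 under MLX-WT, 21.54, 21.1 and 22.50 under MLX-DN and 17.1, 17 and 16.9 under MLX shRNA. Here MLX-WT was highest and MLX shRNA lowest, with no overlap between any groups. The Ccnb1 change was -0.43 with MLX-DN and -0.65 with MLX shRNA. Ccnb2 changed by -0.78 and -0.52, and Ccna2, the cyclin of S phase and G2, by -0.60 and -0.68. Against NT shRNA the fall of Ccnb2 with MLX-DN was -0.10 (limma adjusted p = 0.0141), and this call ended without NT shRNA replicate 1 (0.0524) or 2 (0.0686). It was -0.01 (0.819) with median centring and -0.02 (0.558) with quantile normalization.

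Plk1, a kinase that acts from entry to cell division, was at 25.4, 25.3 and 25.04 FPKM in the GFP control, 14.4, 14.7 and 14.9 under NT shRNA, 19.1, 18.6 and 18.9 under MLX-WT, 10.1, 10.1 and 9.77 under MLX-DN and 9.20, 9.61 and 10.3 under MLX shRNA. Its MLX-DN and MLX shRNA libraries overlapped each other and lay below all others. The difference was -1.18 with MLX-DN (SE 0.0312, limma adjusted p = 1.91e-14), the second largest fall of the list, and -0.51 with MLX shRNA (SE 0.0312, adjusted p = 9.80e-10). Aurka, the kinase of the spindle poles, changed by -0.78 and -0.47. Foxm1, the transcription factor of G2 genes, had 12.3, 12.50 and 12.6 FPKM in the GFP control, 9.02, 9.51 and 8.89 under NT shRNA, 7.73, 7.49 and 7.83 under MLX-WT, 5.25, 5.48 and 5.15 under MLX-DN and 5.87, 5.56 and 5.73 under MLX shRNA. Every group was separate from the others, with the GFP control highest and MLX-DN lowest. Its differences were -0.99 and -0.53, and it was -0.58 with MLX-WT, the largest fall of any member there.

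The chromosomal passenger complex corrects faulty attachments of chromosomes and later positions the cleavage site. Its kinase gene Aurkb was at 14.1, 13.97 and 14.7 FPKM in the GFP control, 9.67, 9.51 and 9.62 under NT shRNA, 10.7, 10.6 and 11.3 under MLX-WT, 5.20, 4.42 and 4.89 under MLX-DN and 5.44, 5.78 and 5.67 under MLX shRNA. All groups were separate, and the level with MLX-DN was the lowest. The fall with MLX-DN, -1.25 (SE 0.0380, limma adjusted p = 9.62e-14), was the largest of the 40 genes, an FPKM ratio of 0.339. With MLX shRNA it was -0.60 (SE 0.0380, adjusted p = 1.33e-09). Birc5, which encodes survivin, was at 12.8, 12.6 and 12.52 FPKM in the GFP control, 8.32, 8.57 and 8.34 under NT shRNA, 10.6, 10.3 and 11.7 under MLX-WT, 5.11, 5.46 and 5.62 under MLX-DN and 5.30, 6.02 and 5.72 under MLX shRNA. MLX-DN and MLX shRNA overlapped there, below the other groups, and the differences were -0.99 and -0.44. Cdca8, which encodes borealin, went from 25.46 ± 0.802 FPKM (mean ± SD, n = 3) to 11.6 ± 0.540 with MLX-DN, and from 17.3 ± 0.602 with NT shRNA to 14 ± 0.430 with MLX shRNA (-1.01 and -0.27).

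Kinetochore genes attach chromosomes to microtubules, and the 6 of them had medians of -0.55 for MLX-DN and -0.70 for MLX shRNA. For 3 of them, Spc25, Cenpf and Cenpe, the difference between these effects passed its own test. Ndc80, a subunit of the complex that grips spindle microtubules, was at 16.4, 16.3 and 17.1 FPKM in the GFP control, 12.6, 11.9 and 11.8 under NT shRNA, 11.7, 12.6 and 12.4 under MLX-WT, 7.71, 9.01 and 8.69 under MLX-DN and 6.60, 5.58 and 6.36 under MLX shRNA. MLX shRNA was lowest and MLX-DN next, while MLX-WT overlapped NT shRNA. Its differences were -0.83 (SE 0.0502) and -0.78 (SE 0.0502), and its partners Nuf2 and Spc25 were at -0.63 and -0.44 with MLX-DN and -0.75 and -0.67 with MLX shRNA. Cenpf, a large kinetochore protein of G2 and mitosis, was at 6.65, 6.68 and 6.70 FPKM in the GFP control, 5.33, 5.23 and 5.56 under NT shRNA, 5.95, 5.78 and 5.97 under MLX-WT, 4.44, 4.48 and 4.71 under MLX-DN and 3.23, 2.88 and 2.98 under MLX shRNA, the lowest level of the 40 genes. The groups did not overlap, and the changes were -0.41 and -0.55. Cenpe, a kinesin of the kinetochore, changed by -0.60 and -0.73, and Cenpa, the histone variant that marks the centromere, by -0.50 and -0.37.

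The spindle assembly checkpoint holds back anaphase until every chromosome is attached. Its kinase gene Bub1 was at 10.1, 9.93 and 9.10 FPKM in the GFP control, 8.75, 8.56 and 8.93 under NT shRNA, 8.30, 8.69 and 8.62 under MLX-WT, 6.02, 6.90 and 6.83 under MLX-DN and 4.56, 3.98 and 4.84 under MLX shRNA. The MLX shRNA libraries were lowest and the MLX-DN libraries next, and NT shRNA overlapped MLX-WT. Bub1 changed by -0.45 with MLX-DN and -0.74 with MLX shRNA. Bub1b, which encodes BubR1, changed by -0.59 and -0.63, Ttk, which encodes the kinase MPS1, by -0.56 and -0.39, and Mad2l1, whose product binds CDC20, by -0.82 and -0.48.

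Once the checkpoint is satisfied, ubiquitin ligation starts anaphase. Cdc20 was at 53.47, 56.3 and 56.7 FPKM in the GFP control, 38.2, 37.2 and 35.7 under NT shRNA, 47.6, 47.2 and 48.1 under MLX-WT, 28.2, 28.2 and 27.8 under MLX-DN and 26.3, 28.8 and 27.3 under MLX shRNA. The libraries of MLX-DN and MLX shRNA overlapped and stood well below the rest, with differences of -0.93 and -0.41. Cdca3, a trigger of mitotic entry that works with ubiquitin ligases, had the widest range of the list, 24, 24.6 and 23.1 FPKM in the GFP control, 12.98, 14.2 and 13.1 under NT shRNA, 14.9, 15.1 and 16.3 under MLX-WT, 8.84, 9.98 and 9.88 under MLX-DN and 5.87, 7.02 and 6.22 under MLX shRNA. All groups were separate for Cdca3. It changed by -1.16 with MLX-DN (SE 0.0521, limma adjusted p = 9.94e-12) and -0.88 with MLX shRNA (SE 0.0521, adjusted p = 6.52e-10), and the latter was an FPKM ratio of 0.476. Pttg1, which encodes securin, changed by -1.10 and -0.54, and Espl1, the separase that cuts cohesin, by -0.87 and -0.20. Ube2c, the ubiquitin carrier of the anaphase-promoting complex, changed by -0.86 and -0.60. The exons of Ube2c share 22.8% of their bases with the muscle gene Tnnc2 on the other strand (GENCODE M21), whose mean was 1685 FPKM in the GFP control and 733 with MLX-DN.

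**Figure D3:**
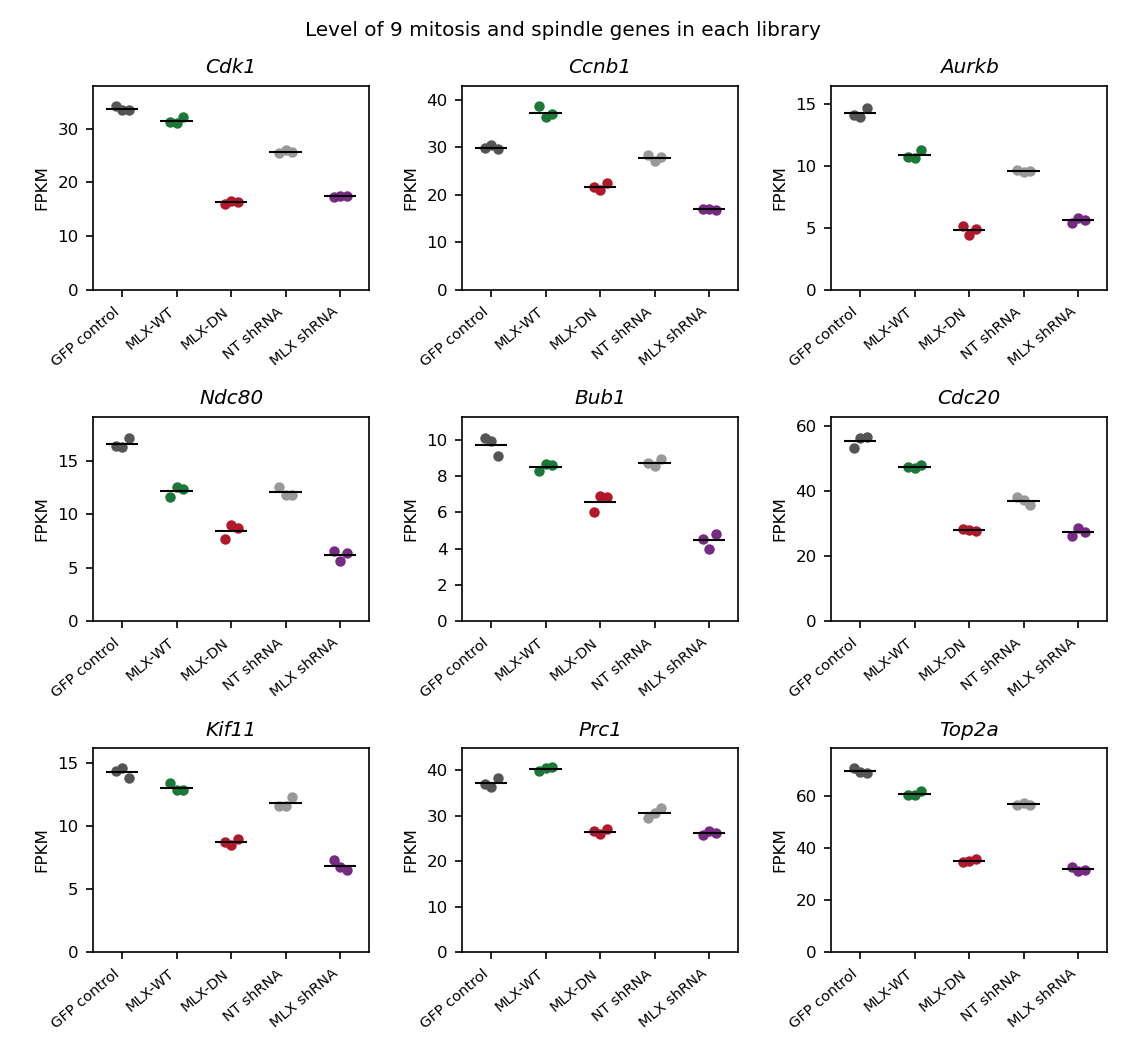
FPKM (y axis, from 0) of 9 genes in each library, grouped by construct on the x axis. Points are libraries and lines are means of 3. MLX-DN and MLX shRNA points lie below those of the other groups in all 9 panels, and MLX-WT is highest for Ccnb1 and Prc1.

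Motors and microtubule proteins build the spindle itself. Kif11, the kinesin that pushes the poles apart, was at 14.4, 14.6 and 13.8 FPKM in the GFP control, 11.6, 11.6 and 12.3 under NT shRNA, 13.4, 12.9 and 12.9 under MLX-WT, 8.72, 8.51 and 8.999 under MLX-DN and 7.28, 6.80 and 6.495 under MLX shRNA. MLX shRNA was lowest, MLX-DN next, and no groups overlapped, with differences of -0.60 and -0.65. Tpx2, which activates Aurora A and nucleates microtubules near chromosomes, was at 27.3, 27.2 and 26.99 FPKM in the GFP control, 21.6, 21.3 and 20.3 under NT shRNA, 22.3, 22.50 and 24.01 under MLX-WT, 16.8, 16.98 and 17.1 under MLX-DN and 13.7, 12.99 and 13.7 under MLX shRNA. Its groups were also separate (-0.62 and -0.58). Nusap1, a protein that bundles spindle microtubules, had the largest fall with MLX shRNA, from 9.11, 9.14 and 8.66 FPKM with NT shRNA to 4.09, 4.11 and 3.42. That is -0.90 (SE 0.0439, limma adjusted p = 6.15e-11), an FPKM ratio of 0.432, beside -0.48 with MLX-DN. Kif2c, which takes apart microtubule ends, changed by -1.03 and -0.55, and the chromosome-arm motor gene Kif4 by -0.74 and -0.54. Ckap2 moved least with MLX-DN, with 12.1, 11.8 and 11.1 FPKM in the GFP control against 10.03, 9.97 and 10.3 (-0.17, limma adjusted p = 1.02e-04), and it changed by -0.37 with MLX shRNA. Hmmr changed by -0.33 and -0.44.

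The midzone and the cleavage furrow divide the cell, and the 6 genes had medians of -0.46 for MLX-DN and -0.50 for MLX shRNA. Racgap1 encodes a subunit of centralspindlin, the complex that tells the cortex where to cut. Its level was 61.02, 60.8 and 60.96 FPKM in the GFP control, 38.2, 37.98 and 37.7 under NT shRNA, 52.1, 48.4 and 50.2 under MLX-WT, 25.9, 26.2 and 26.2 under MLX-DN and 24.9, 25.1 and 25.2 under MLX shRNA. All groups were separate, and the differences were -1.16 (SE 0.0236, limma adjusted p = 8.83e-16) and -0.56 (SE 0.0236, adjusted p = 1.06e-11). Kif23, which encodes the motor of the same complex, changed by -0.47 and -0.16, and the latter was the smallest fall of the list with MLX shRNA. Prc1, the bundler of midzone microtubules, was at 36.9, 36.3 and 38.3 FPKM in the GFP control, 29.6, 30.6 and 31.6 under NT shRNA, 39.7, 40.4 and 40.8 under MLX-WT, 26.54, 25.97 and 27.01 under MLX-DN and 25.8, 26.6 and 26.2 under MLX shRNA. MLX-WT was highest, MLX-DN and MLX shRNA overlapped below the rest, and the changes were -0.46 and -0.21. The midzone kinesin gene Kif20a changed by -0.88 and -0.57, the contractile ring scaffold gene Anln (anillin) by -0.37 and -0.44, and Ect2, whose product switches on RhoA for the furrow, by -0.41 and -0.57.

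Top2a, the topoisomerase that untangles sister chromosomes, was the most abundant member, at 70.6, 69.3 and 68.7 FPKM in the GFP control, 56.7, 57.2 and 56.4 under NT shRNA, 60.2, 60.3 and 61.98 under MLX-WT, 34.4, 34.98 and 35.8 under MLX-DN and 32.7, 31.3 and 31.6 under MLX shRNA. Its groups were separate, with differences of -0.95 and -0.80. Mki67, which encodes the proliferation antigen Ki-67 that coats mitotic chromosomes, was at 21.8, 21.6 and 21.8 FPKM in the GFP control, 15.46, 15.8 and 15.97 under NT shRNA, 16.7, 16.6 and 16.8 under MLX-WT, 11.1, 11.1 and 11.6 under MLX-DN and 9.23, 8.93 and 8.77 under MLX shRNA. It followed the same order (-0.84 and -0.69).

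**Figure D4:**
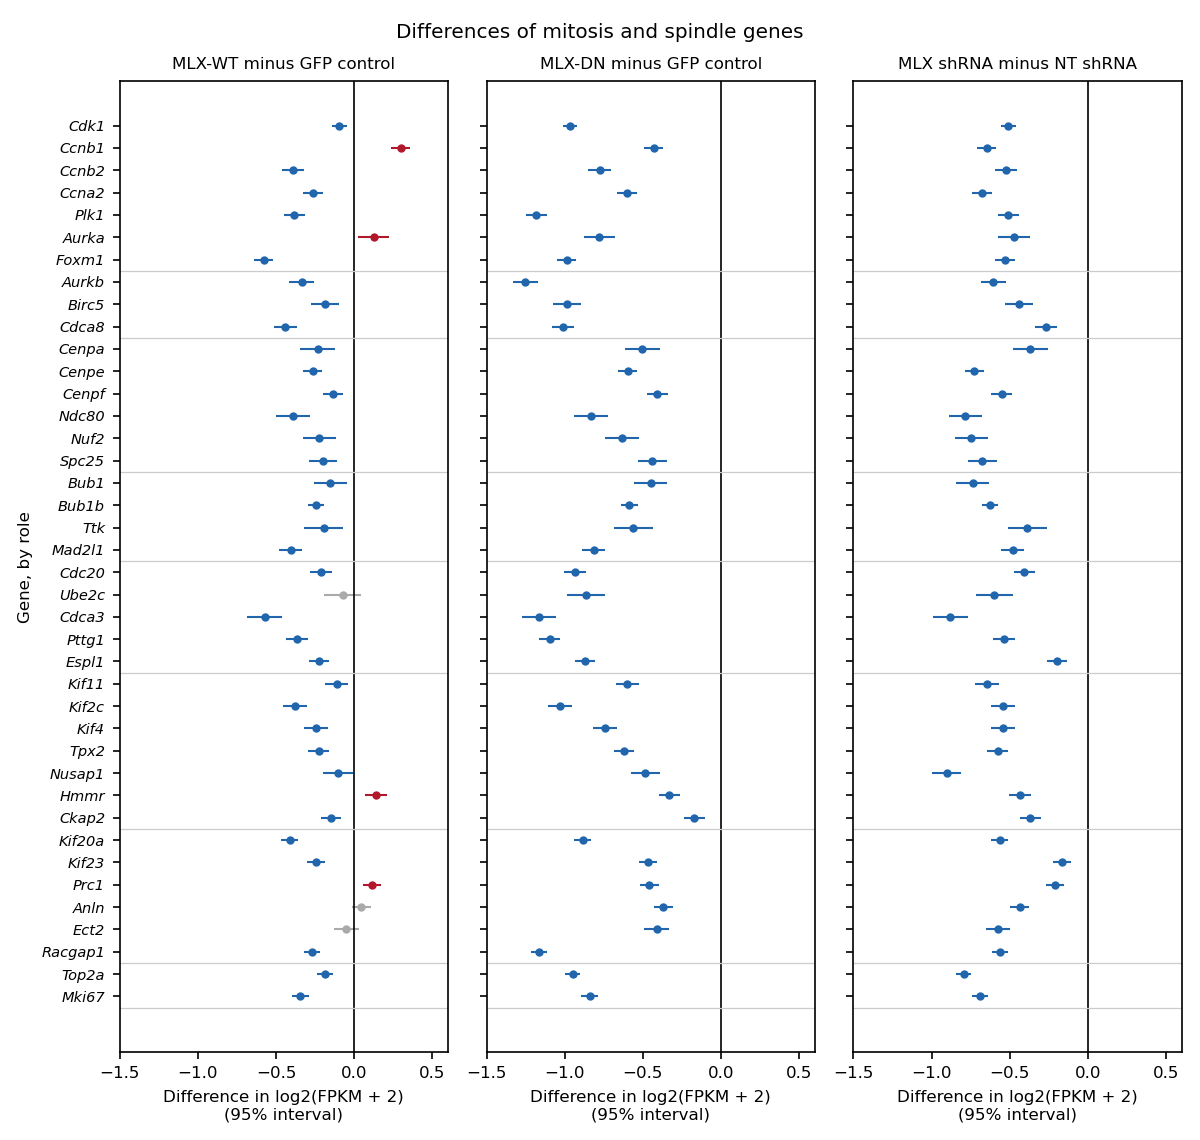
Difference in log2(FPKM + 2) with its 95% interval (x axis) for each of 40 genes (y axis, by role) in 3 comparisons. Blue points were called lower, red higher and grey not called. All 40 points are blue for MLX-DN and MLX shRNA, and 33 are blue, 4 red and 3 grey for MLX-WT.

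Wild-type MLX gave smaller and mixed changes. Against the GFP control 33 members were lower and 4 higher (42.7% and 27.6% of tested genes), with a median of -0.23 (all tested genes -0.05). Foxm1 (-0.58), Cdca3 (-0.57) and Cdca8 (-0.44) fell most. The 4 that rose were Ccnb1 (0.30, SE 0.0281, limma adjusted p = 1.44e-07), Hmmr (0.14), Aurka (0.12, adjusted p = 0.0296) and Prc1 (0.11). The call of Aurka ended without GFP control replicate 2 (0.117) or MLX-WT replicate 1 (0.0502) or 3 (0.143). That of Nusap1, at -0.10 (adjusted p = 0.0471), ended when any of the 6 libraries compared was left out (0.0521 to 0.176), and that of Bub1 (-0.15) without GFP control replicate 1 (0.0571). Median centring and quantile normalization both ended the calls of Nusap1, Bub1, Cenpf, Kif11 and Ttk (0.0717 to 0.565), and median centring also that of Cdk1 (0.291). Ube2c (-0.07, 95% interval -0.19 to 0.05), Ect2 (-0.05, -0.13 to 0.03) and Anln (0.05, -0.02 to 0.11) were not called.

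Against the NT shRNA control the balance turned, with 25 members higher and 3 lower with MLX-WT (25.7% and 44.3% of tested genes) and a median of 0.12 (all tested genes -0.06). Aurka (0.58), Hmmr (0.43) and Pttg1 (0.41) were furthest above NT shRNA, and Foxm1 (-0.20), Spc25 (-0.25) and Ckap2 (-0.14) were the 3 below it. The call of Ckap2 ended with median centring (limma adjusted p = 0.0786) and quantile normalization (0.0725). The calls of Cenpe (0.09) and Mki67 (0.08) were lost without MLX-WT replicate 1 (0.0543) or 3 (0.0525) and without NT shRNA replicate 1 (0.0531) respectively. Thus 19 members lay between the controls, lower than one and higher than the other. Relative to both controls, Ccnb1, Aurka, Hmmr and Prc1 were higher and Foxm1, Spc25 and Ckap2 lower. The shares of tested genes with such joint calls, those between the controls included, were not counted.

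MLX-DN and MLX-WT, both overexpressed, were compared directly. MLX-DN was lower in 39 members and higher in 0 (38.9% and 33.2% of tested genes), with a median of -0.47. Aurkb (-0.92), Aurka (-0.90) and Racgap1 (-0.89) differed most, and Ckap2 (-0.02, 95% interval -0.09 to 0.04) was not called. By role, the median was -0.80 for the passenger complex, -0.73 for mitotic entry and -0.72 for the ubiquitin pathway, but -0.35 for the checkpoint and -0.30 for the kinetochore.

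All 40 genes were lower under both MLX-DN and MLX shRNA, and the sizes of the falls were compared. The difference between the effects, each against its own control, passed the test in 31 members, as it did in most tested genes. In 22 the MLX-DN effect was the more negative and in 9 the MLX shRNA effect was (42.8% and 32% of tested genes). Each difference also holds the gap between the controls, so it does not compare the levels of MLX-DN and MLX shRNA. All 3 passenger complex genes and all 5 of the ubiquitin pathway were among the 22, led by Cdca8 (-0.74), Espl1 (-0.67) and Plk1 (-0.67). The 9 were Nusap1 (0.42), Bub1 (0.29), Spc25 (0.23), Ccnb1 (0.22), Ckap2 (0.20), Ect2 (0.16), Cenpf (0.14), Cenpe (0.13) and Hmmr (0.11). The call of Hmmr (limma adjusted p = 0.0496) ended in 8 of 12 fits without 1 library (0.0556 to 0.135).

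Set against each other without controls, MLX shRNA was lower than MLX-DN in 29 members and higher in 5 (27.1% and 44.1% of tested genes). All 6 kinetochore genes, all 4 checkpoint genes and all 7 motors and microtubule genes were lower, led by Nusap1 (-0.59), Cenpe (-0.48) and, from the ubiquitin pathway, Cdca3 (-0.47). The calls of Ttk (-0.16), Kif4 (-0.11) and Kif2c (-0.10) were lost without MLX-DN replicate 3 (0.114, 0.0742 and 0.0895). Ttk was also lost without MLX-DN replicate 1 (0.0806) or MLX shRNA replicate 2 (0.107) or 3 (0.0572), and Kif4 without MLX shRNA replicate 2 (0.0626). The 5 higher were Espl1 (0.32), Cdca8 (0.23), Aurkb (0.16), Cdk1 (0.09) and Foxm1 (0.08), and the call of Foxm1 was lost without MLX-DN replicate 1 (0.0564) or 3 (0.0793) or MLX shRNA replicate 1 (0.0712), and with median centring (0.181) or quantile normalization (0.338). Plk1 (-0.04), Cdc20 (-0.03, 95% interval -0.10 to 0.04) and Prc1 (-0.02, -0.07 to 0.04) lay closest together. Plk1 was called lower with median centring (limma adjusted p = 0.0359), quantile normalization (0.0393) or without MLX shRNA replicate 3 (0.0278). With quantile normalization Cdc20 was also called lower (0.0196). Racgap1 and Kif23 gained calls as lower in some settings, both scalings among them.

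Other genes of the pathway were counted in lists chosen by function, to be read against the 48.8% of all tested genes lower and 32.6% higher with MLX-DN, and 39.3% and 30.8% with MLX shRNA. Of 72 further mitosis genes, 67 were lower and 2 higher with MLX-DN (93.1% and 2.78%, median -0.56), and 65 and 2 with MLX shRNA (90.3% and 2.78%, median -0.42). With MLX-DN they included Cdc25b, the phosphatase that activates CDK1 (23.8 ± 0.344 to 8.16 ± 0.167 FPKM, -1.35), and Incenp, the scaffold of the passenger complex (-1.12). With MLX shRNA the lowest p-values were those of the condensin gene Ncaph (-0.81), Iqgap3 (-0.71) and the spindle pole gene Aspm (-0.59). The core of the anaphase-promoting complex, which is present throughout the cycle, had 7 of 14 genes lower and 5 higher with MLX-DN (50% and 35.7%, median -0.08) and 5 and 5 with MLX shRNA (35.7% each, median -0.02), shares near those of all tested genes. Its subunit gene Anapc10 was at 24.03 ± 0.603 FPKM with MLX-DN and 7.29 ± 0.0800 in the GFP control. In that comparison the 10 tested genes next to it on chromosome 8, in order of start, had a median log2 difference of 1.22. Between the controls they had 1.18.

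Genes of DNA replication were lower in 41 of 44 cases with MLX-DN (93.2%, against 48.8% of all tested genes; 2 higher, median -0.81) and in 42 with MLX shRNA (95.5% against 39.3%; 0 higher, median -0.43). They included the helicase gene Mcm2 (-1.32 with MLX-DN), Uhrf1, which maintains DNA methylation (-1.56), and Rpa1, which coats single-stranded DNA (-0.98). With MLX-WT 38 were lower than in the GFP control and 2 higher (86.4% lower against 42.7%, median -0.36), and against NT shRNA 28 were lower and 2 higher (63.6% lower against 44.3%, median -0.16). Against NT shRNA the 72 further mitosis genes had 24 lower and 22 higher with MLX-WT (33.3% and 30.6%, against 44.3% and 25.7% of all tested genes), with a median of -0.0001, beside the 25 of 40 members that were higher.

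Of 26 genes of MuvB, the E2F family and p53, which regulate these genes, 13 were lower and 5 higher with MLX-DN (50% and 19.2%, against 48.8% and 32.6% of all tested genes, median -0.09). With MLX shRNA 14 were lower and 7 higher (53.8% and 26.9%, against 39.3% and 30.8%, median -0.14). The lower share with MLX-DN was near that of all tested genes. E2f7, a repressor made in S phase, had 5.21 ± 0.277 FPKM in the GFP control against 1.07 ± 0.0235 with MLX-DN, and 2.84 ± 0.273 with NT shRNA against 1.16 ± 0.178 with MLX shRNA (-1.23 and -0.61). Mybl2, which encodes B-MYB, changed by -0.75 and -0.48, and E2f1, which drives S phase genes, by -0.64 and -0.52. The MuvB subunit gene Lin9 changed by -0.11 and -0.24, and Rbl2, which encodes the pocket protein p130 of DREAM, by 0.64 and -0.24. Trp53 (p53) changed by -0.66 and -0.20. Cdkn1a, which encodes the CDK inhibitor p21, had means of 578 to 769 FPKM and changed by -0.09 with MLX-DN and 0.35 with MLX shRNA.

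Of 10 tested D-type cyclins, their kinases and CDK inhibitors, 9 were lower and 1 higher with MLX-DN (90% and 10%, against 48.8% and 32.6% of all tested genes, median -0.28). With MLX shRNA 6 were lower and 3 higher (60% and 30%, against 39.3% and 30.8%, median -0.16). Ccnd3 (-1.40 and -0.42) and Cdk4 (-0.86 and -0.16) fell in both, while Ccnd1 (-0.28 and 1.21) fell with MLX-DN and rose with MLX shRNA.

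**Figure D5:**
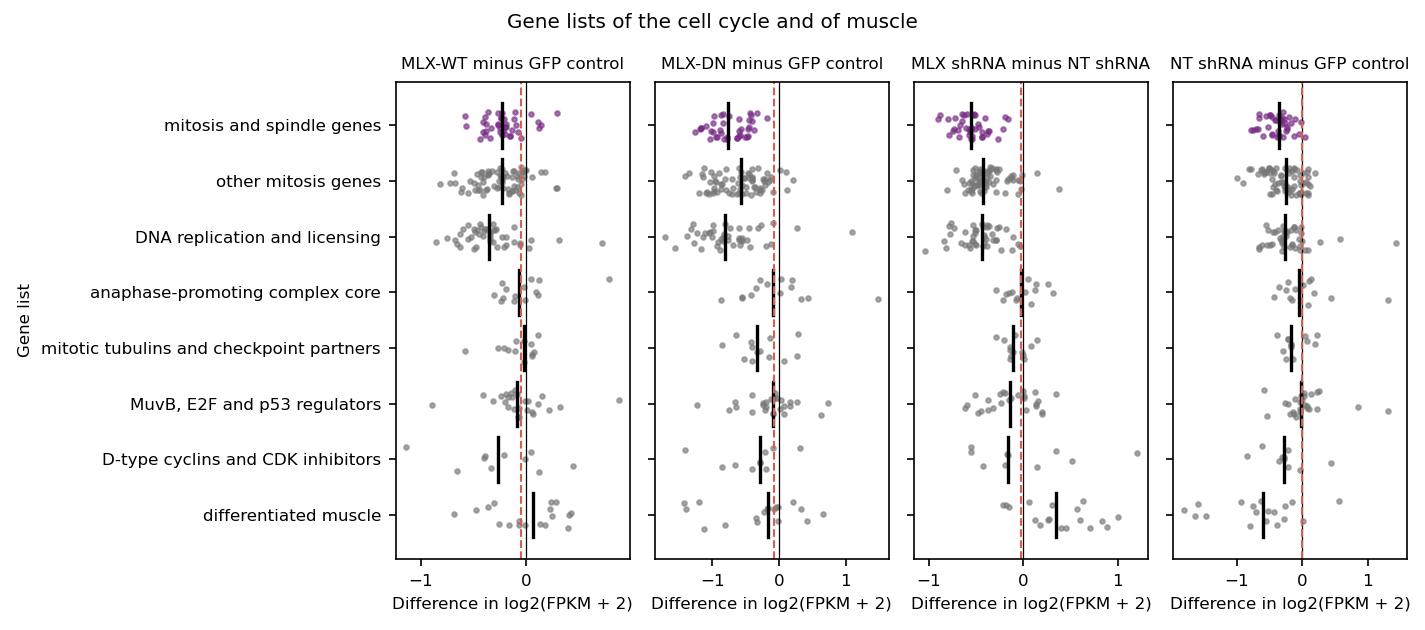
Difference in log2(FPKM + 2) (x axis) of each tested gene of 8 lists (y axis) in 4 comparisons. Points are genes, black bars list medians and the dashed line the median of all tested genes. The medians of the mitosis, spindle and replication lists lie left of the dashed line in all 4 panels, and the muscle median lies to its right with MLX shRNA and to its left between the controls.

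Markers of differentiated muscle also moved between the groups. Their sum ran from 16060 to 16430 FPKM under NT shRNA and 22250 to 24000 under MLX shRNA, and from 24320 to 24810 in the GFP control, 21670 to 22130 under MLX-DN and 26310 to 26730 under MLX-WT. With MLX-DN 11 of 18 tested markers were lower and 4 higher (61.1% and 22.2%, against 48.8% and 32.6% of all tested genes, median -0.17). With MLX shRNA 3 were lower and 14 higher (16.7% and 77.8%, against 39.3% and 30.8%, median 0.35). Between the controls 16 were lower in NT shRNA and 1 higher (88.9% and 5.56%, against 37.1% and 37%, median -0.59). Of the 40 mitosis and spindle genes, 40, 40 and 37 were lower in these 3 comparisons, and the part of the muscle markers in those results was not tested. Among immune markers Ptprc, named after its values were seen, rose with MLX-DN (1.71) to 4.55 ± 0.176 FPKM.

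Some members share exon bases with a gene of the opposite strand in GENCODE M21. The shares were 29.3% for Kif20a with Cdc23, 15.1% for Kif4 with Pdzd11, 12.5% for Ccna2 with Exosc9 and 11.1% for Prc1 with Rccd1, besides Ube2c. The sources used here do not give the use of strand in counting, so these values are uncertain to that extent. Kif4 also has a named pseudogene in the table that could take part of its reads.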

How the data were processed

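The labels gave each of the 15 libraries of C2C12 messenger RNA its group and replicate number, with 3 libraries in each of 5 groups. Per the labels' protocols, lentivirus carried the constructs and a stranded kit was used on poly(A) RNA. CASAVA, TopHat2, STAR and mouse build mm9 appear in the submitters' processing notes without a role. What the authors deposited is 1 table of log2 values made from FPKM, for 23352 genes. The lowest deposited value was exactly 1 in every library, so values were read as log2(FPKM + 2). The offset is stated by no label. With this reading, FPKM times RefSeq transcript length summed to 0.902 to 0.935 M over genes holding 88.3% to 90.2% of the FPKM. The table has no counts, and at the estimated depth 64.5% to 68.0% of low values came out as whole reads (tolerance 0.05; 10% if evenly spread). The floor of 3 reads was 0.0182 to 0.0406 FPKM at 2000 bases, which covers counting error only.

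A gene was tested where 3 or more libraries reached 1 FPKM. The deposited log2 values were fitted with limma 3.58.1 (R 4.3.3), one mean for each group and all 15 libraries together, with a trend over expression, two-sided tests, Benjamini-Hochberg adjustment over all 11945 tested genes of a comparison and a threshold of 0.05. The fit was tested on simulated data. Members and lists were chosen with earlier results of these data known. Median centring of the libraries moved the median of all tested genes by at most 0.0929, and it turned the split of all genes called higher and lower from 3892 and 5831 to 5017 and 4660 for MLX-DN against the GFP control, from 3674 and 4695 to 4675 and 3716 for MLX shRNA against NT shRNA, and from 3300 and 5100 to 4511 and 3775 for MLX-WT against the GFP control. Further splits turned from 3067 and 5288 to 4230 and 3643 (MLX-WT against NT shRNA), from 2510 and 5821 to 4131 and 3710 (MLX-DN against NT shRNA), and from 5263 and 3243 to 4462 and 3893 (MLX shRNA against MLX-DN).

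All 40 members may be named. Values in every library are given for a fixed set of 15 and for members with the largest changes. From other lists, the genes named are among the 3 of lowest p with MLX-DN or MLX shRNA, or are textbook regulators. Ptprc and genes that overlap or neighbour named ones are outside this rule and were chosen after their values were seen. Promoters are RefSeq's (GRCm38.p6), searched on both strands in 300 bases. Exons and pseudogenes came from GENCODE M21 (GRCm38). Neighbours were the tested genes next in order of start on each side, from the RefSeq gene list. Coordinates are given for promoters alone, because the table's build is not GRCm38 by the notes. The alternatives changed the offset, the filter, the scaling, the variance model and the libraries fitted, or used a 2-fold limit, a replicate block, leaving out each library in turn, and a shorter promoter window.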

Additional observations from a re-analysis of the deposited data

Results flagged for a closer look

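The effects of MLX-DN and MLX shRNA, each against its own control, differed in 31 members by limma's test of the difference. In 22 members the MLX-DN effect was lower and in 9 it was higher (42.8% and 32% of tested genes). Most tested genes thus passed this test too. The differences furthest from 0 were those of Cdca8 (-0.74), Espl1 (-0.67) and Plk1 (-0.67), for which the effect of MLX-DN was the more negative. Each difference also holds the gap between the controls. The FPKM ratio of NT shRNA to the GFP control was 0.6775 for Cdca8, 0.7267 for Espl1 and 0.5815 for Plk1. That of MLX shRNA to MLX-DN was 0.9708 for Plk1 and 1.203 for Cdca8, and Espl1 was also higher with MLX shRNA. The groups had 3 libraries each, too few to call a single library outlying. Leaving out 1 library gave 22 to 24 members lower and 8 to 11 higher.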

How the results depend on the processing

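The counts of members lower with MLX-DN against the GFP control and with MLX shRNA against either control were 40 under every offset, filter, scaling, variance model and set of libraries tried, and without any 1 library. Of 6240 values of single members, 6110 kept their call or stayed uncalled, 79 lost the call and 51 gained it. Among members called in the main fit 0 reversed, and the direction of uncalled members was not compared. Requiring at least 2-fold on the log2(FPKM + 2) scale left 7 members lower with MLX-DN and 15 lower with MLX shRNA, both against the GFP control, and 0 in every other comparison and direction, including 0 for MLX shRNA against NT shRNA and 0 for the difference of effects. On FPKM, the members at or under a ratio of 0.5 were 11 for MLX-DN and 26 for MLX shRNA against the GFP control, 2 for MLX shRNA against NT shRNA, 3 for MLX-DN against MLX-WT and 0 in the other direct comparisons. Shares of all tested genes at that FPKM ratio were not counted. With median centring or quantile normalization, MLX-WT was lower than the GFP control in 27 or 28 members and higher than NT shRNA in 33, and MLX-DN was lower than NT shRNA in 33 to 39 over all settings. Leaving out 1 library gave 31 to 32 lower and 3 to 4 higher with MLX-WT against the GFP control, 24 to 26 higher and 3 lower against NT shRNA, 38 to 39 lower with MLX-DN against NT shRNA, 39 against MLX-WT, 36 to 37 lower between the controls, and 26 to 30 lower and 4 to 5 higher for MLX shRNA against MLX-DN. For the difference of effects it gave 22 to 24 lower and 8 to 11 higher. The replicate numbers gave no clear pairing of the libraries. Same-numbered libraries had deviations correlated at -0.0933 to 0.182 (30 pairs, median 0.029), against -0.276 to 0.243 for other numbers (60 pairs, median -0.0053). Still, 11 of 15 libraries had a higher mean correlation with their own number, so pairing was not settled. With the replicate block, 40 members were lower with MLX-DN and 40 with MLX shRNA, 32 lower and 4 higher with MLX-WT against the GFP control, 26 higher and 3 lower against NT shRNA, 39 lower for MLX-DN against MLX-WT and against NT shRNA, 37 between the controls, 29 lower and 5 higher for MLX shRNA against MLX-DN, and 23 lower and 8 higher for the difference of effects. The promoter window from 200 bases before the start held TTTGAA in 27 members, CCAAT in 27 and TTTAAA in 7. Depth was estimated and not given, so no count test was run, and 3 libraries a group of unstated origin limit how far the p-values reach.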
